A study of Arabidopsis thaliana with 11 samples.

Results

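The regions described here are the places in the Arabidopsis genome where FLAG-tagged ACD15 or ACD21 gave a peak and no MBD5/MBD6 site was listed. A row of the authors' merged ACD15 or ACD21 list on chromosomes 1 to 5 was kept when it shared no base with any row of their MBD5/MBD6 list, and overlapping rows of both lists were joined. This kept 657 of 11101 ACD15 rows and 157 of 6803 ACD21 rows, which formed 695 regions. Joining all rows gave 11331 regions, and joining the rows that touch an MBD5/MBD6 row gave 10637, called inside regions below. The sum exceeds 11331 by 1 because 1 of the 695 regions touches an inside region of the other list. The 695 regions were chosen by measured values, the presence of a FLAG peak and the absence of an MBD5/MBD6 row, so both are given as descriptions without a test.

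The study profiled chromatin of inflorescences from soil-grown Arabidopsis thaliana, ecotype Col0, by chromatin immunoprecipitation and sequencing. Its title names ACD15, ACD21 and SLN as regulators of MBD6 in gene and transposon silencing. Batch 1 held 2 libraries of wild-type plants with the transgene ACD15.5-3XFLAG, 2 of wild-type plants with ACD21.4-3XFLAG and 1 control with no transgene. Batch 2 held 2 libraries of wild-type plants with MBD6-RFP, 2 of acd15 acd21 double mutants with MBD6-RFP and 2 controls with no transgene. The labels name the anti-FLAG M2 antibody for every library, including those whose titles name RFP, so the antibody used in batch 2 is uncertain. The FLAG plants also carry their own untagged ACD15 and ACD21, since their genotype is wild type. The labels do not name the promoter that drives each transgene, and the numbers 4 and 5 in the transgene names are not explained there. Each of the 8 transgenic libraries has its own peak list, and the 3 controls enter no comparison below. The file names say that control peaks were taken out of the FLAG lists, and the MBD5/MBD6 list names parent files of the same kind. A region missing from any list may therefore have gone uncalled or have been taken out. No library described here profiled MBD5, so the MBD5/MBD6 list rests at least in part on other data. Its name calls its peaks broad. Being outside MBD5/MBD6 sites is thus not a contrast measured within these libraries alone. Nothing in the labels says that replicates came from separately grown plants, so the spread between them may be technical.

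MBD5 and MBD6 are proteins with a methyl-CpG binding domain that recognise DNA methylated at CG dinucleotides. ACD15 and ACD21 carry an alpha-crystallin domain, the fold of small heat shock proteins, and SLN is a J-domain co-chaperone. All of them are known to sit together at methylated CG sites, where they silence some promoter-methylated genes and transposons. DNA methylation was not measured in these libraries, so CG dinucleotides in the reference sequence stand in for the possible sites.

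Sequences at the FLAG summits of selected regions are shown first, because repeated strings are easiest to see in the letters themselves. All are 150 bases of the plus strand from the RefSeq TAIR10.1 assembly, centred on the summit of the highest FLAG peak, with CG dinucleotides in capitals. The first group holds 5 regions with repeated copies, on either strand, of the string TTTCCCGC, letters known from binding sites of E2F cell-cycle factors. Those near AT1G48010, near AT1G60010 and at AT3G29788 were shown for a high mean percentile over the FLAG libraries. The region near AT3G47210 was shown for its MBD6-RFP peak and the one near PHT1;3 for its low CG density. The region upstream of UGT78D1, second by mean percentile, holds 0 copies and is shown last. The last line is the inside region of the highest mean percentile, for comparison.
Region near AT1G48010, chr1:17710203-17710352: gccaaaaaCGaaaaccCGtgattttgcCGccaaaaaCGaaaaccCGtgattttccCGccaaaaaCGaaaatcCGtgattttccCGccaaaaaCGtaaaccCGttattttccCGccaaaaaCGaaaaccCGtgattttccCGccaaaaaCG
Region near AT3G47210, chr3:17382933-17383082: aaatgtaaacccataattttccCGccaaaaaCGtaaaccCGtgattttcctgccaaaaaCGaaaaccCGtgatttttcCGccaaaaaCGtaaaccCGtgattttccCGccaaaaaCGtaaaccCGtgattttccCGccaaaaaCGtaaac
Region near AT1G60010, chr1:22105861-22106010: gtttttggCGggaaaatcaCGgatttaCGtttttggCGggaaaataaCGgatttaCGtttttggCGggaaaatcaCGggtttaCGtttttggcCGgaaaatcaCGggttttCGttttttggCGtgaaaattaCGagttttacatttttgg
Region at pseudogene AT3G29788, chr3:11602952-11603101: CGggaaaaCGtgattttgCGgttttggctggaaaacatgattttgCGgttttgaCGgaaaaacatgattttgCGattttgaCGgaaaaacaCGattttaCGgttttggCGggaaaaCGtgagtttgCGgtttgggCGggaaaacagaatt
Region near PHT1;3, chr5:17407000-17407149: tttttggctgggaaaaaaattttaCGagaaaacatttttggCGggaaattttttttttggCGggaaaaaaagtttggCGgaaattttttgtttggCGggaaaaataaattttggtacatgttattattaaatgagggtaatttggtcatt
Region inside an MBD5/MBD6 site, chr5:15183621-15183770: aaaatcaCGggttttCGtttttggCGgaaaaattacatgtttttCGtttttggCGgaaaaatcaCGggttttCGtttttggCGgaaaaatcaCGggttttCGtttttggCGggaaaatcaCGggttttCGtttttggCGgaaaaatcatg

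In the first 4 windows a unit of 27 or 28 bases recurs in tandem. The window near AT1G48010 holds 16 CG dinucleotides and 4 copies of TTTCCCGC, and the one at AT3G29788 holds 13 and 2. Shifted by 28 bases, the 300-base window around the centre of the AT1G48010 region matched itself at 82.4% of its positions, that near AT3G47210 at 80.5% and that near AT1G60010 at 66.2%. The window at AT3G29788 matched itself at 66.7% with a shift of 27 bases. The window near PHT1;3 holds 3 copies of TTTCCCGC and 5 CG dinucleotides. The inside window holds 1 copy and 14 CG dinucleotides, and in its letters a unit of 28 bases also recurs. The 300-base window around the centre of that inside region matched itself best at 42.0%, with a shift of 55 bases.

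The next pair came from the region of highest CG density among those called in at least 2 FLAG libraries and from the highest region of the longest run of neighbours. Both hold 3 copies of the string GACCGATCG, on either strand, and they hold 23 and 21 CG dinucleotides.
Region on the short arm of chromosome 4, chr4:1802364-1802513: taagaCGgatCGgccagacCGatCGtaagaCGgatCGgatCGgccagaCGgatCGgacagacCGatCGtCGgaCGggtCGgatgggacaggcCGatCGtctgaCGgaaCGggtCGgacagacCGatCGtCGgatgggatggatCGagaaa
Region at pseudogene AT2G01029, chr2:32176-32325: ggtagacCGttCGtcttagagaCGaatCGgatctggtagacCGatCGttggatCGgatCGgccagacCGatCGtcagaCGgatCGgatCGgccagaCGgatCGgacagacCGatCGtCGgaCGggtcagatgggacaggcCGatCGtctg

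The last pair shows a coding repeat and a promoter. AT4G08410 is annotated as a proline-rich extensin-like gene, a type of repetitive cell wall protein, and its region had the highest match to itself of all 695, 95.3% at a shift of 150 bases. The region upstream of UGT78D1, a flavonol glycosyltransferase gene, reached 32.9% at its best shift.
Region in AT4G08410, chr4:5340179-5340328: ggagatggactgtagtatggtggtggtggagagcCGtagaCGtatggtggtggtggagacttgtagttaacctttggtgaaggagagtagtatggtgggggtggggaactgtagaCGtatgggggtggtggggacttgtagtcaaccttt
Region upstream of UGT78D1, chr1:10814318-10814467: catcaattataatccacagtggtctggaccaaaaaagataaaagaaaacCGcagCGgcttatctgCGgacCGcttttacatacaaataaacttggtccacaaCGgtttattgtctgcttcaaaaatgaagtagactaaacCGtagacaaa

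Across all regions such arrays were rare. TTTCCCGC occurred 3 times or more, on either strand, in 6 of 695 regions (0.863%, 95% exact binomial interval 0.318 to 1.87), and in 231 of 10637 inside regions (2.17%, 1.90 to 2.47). All intervals over regions cover counting error only. Among regions called in all 4 FLAG libraries the string occurred 3 times or more in 5 of 29 (17.2%, 5.85 to 35.8), against 201 of 2912 such inside regions (6.90%, 6.01 to 7.88). An MBD6-RFP peak was found at 5 of the 6 regions (83.3%, 35.9 to 99.6) and at 148 of the 231 inside regions (64.1%, 57.5 to 70.3). Over all joined regions the share was 29.9%. Among the 5 is the region near AT3G47210, which was shown for its MBD6-RFP peak, so the count is no separate result. At least 1 copy lay in the central 300 bases of 2.16% of the regions, 3.89% of inside regions and 0.632% of 397152 tiles of the same length covering the chromosomes. GACCGATCG occurred 3 times or more in 3 of 695 regions (0.432%, 0.0891 to 1.26), all called in at least 2 FLAG libraries. Among inside regions it did so in 23 of 10637 (0.216%, 0.137 to 0.324). All 3 regions are mostly repeated sequence, and those at chr2:31719-32994 and chr2:34624-37830 lie in the same run of neighbours. At least 1 copy lay in the central 300 bases of 0.288% of the regions, 0.310% of inside regions and 0.0559% of tiles. A match of at least 60% to a copy shifted by 10 to 150 bases was met by 16 of 695 regions (2.30%, 1.32 to 3.71), 1.60% of inside regions and 0.325% of tiles. Where TTTCCCGC occurred 3 times or more, it was met by 4 of 6 regions (66.7%, 22.3 to 95.7) and 90 of 231 inside regions (39.0%, 32.6 to 45.6). Of the 16, 7 lay in coding exons and 4 were called in all 4 FLAG libraries. These 4 are the regions near AT1G48010 and AT1G60010, the one at AT3G29788, and one in the pseudogene AT3G17050 with folds of 2.76, 4.52, 3.29 and 2.15. Both strings and this measure were chosen after the sequences had been seen. A match in letters is a description and does not show that a factor binds.

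Most of the 695 regions rested on 1 library. A FLAG peak was present in 1 library only at 550 regions (79.1%), in 2 at 77, in 3 at 39 and in all 4 at 29. At least 2 libraries called 145 regions (20.9%), while 59.5% of all 11331 joined regions were called that often. All 4 libraries called 4.17%, against 26.0% of all joined regions. The ACD15 list alone gave 543 regions, both lists gave 114 and the ACD21 list alone gave 38. Peaks were found at 177 regions in ACD15 replicate 1, at 563 in ACD15 replicate 2, at 149 in ACD21 replicate 1 and at 48 in ACD21 replicate 2. Those libraries list 5661, 10946, 6774 and 3571 peaks over the genome. ACD15 replicate 2 alone accounted for 426 regions, ACD15 replicate 1 alone for 90, ACD21 replicate 1 alone for 32 and ACD21 replicate 2 alone for 2. Without ACD15 replicate 2, 272 regions were left.

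Regions outside MBD5/MBD6 sites were weak peaks in 3 of the 4 libraries. The fold enrichment quoted here is the value that the authors' peak caller gave each peak, and it is compared only within a list. In ACD15 replicate 1 the median fold was 1.76 at the 177 regions and 2.42 at inside regions, and in ACD15 replicate 2 it was 1.93 and 2.79. In ACD21 replicate 1 the medians were 2.06 and 2.50, and in ACD21 replicate 2 they were 2.32 and 2.40. Ranked by -log10 q within each list, the median region stood at the 14.4th, 19.1th, 31.7th and 51.7th percentile of these 4 lists in that order. In the lowest quintile of the ACD15 replicate 2 list 13.1% of the joined regions lay outside MBD5/MBD6 sites, followed by 7.54%, 2.74%, 1.30% and 1.14% in the quintiles above. These values describe the choice of regions and were not tested. The regions were also narrow, with a median width of 282 bases and a range of 200 to 3207, while inside regions had a median of 462.

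**Figure D1:**
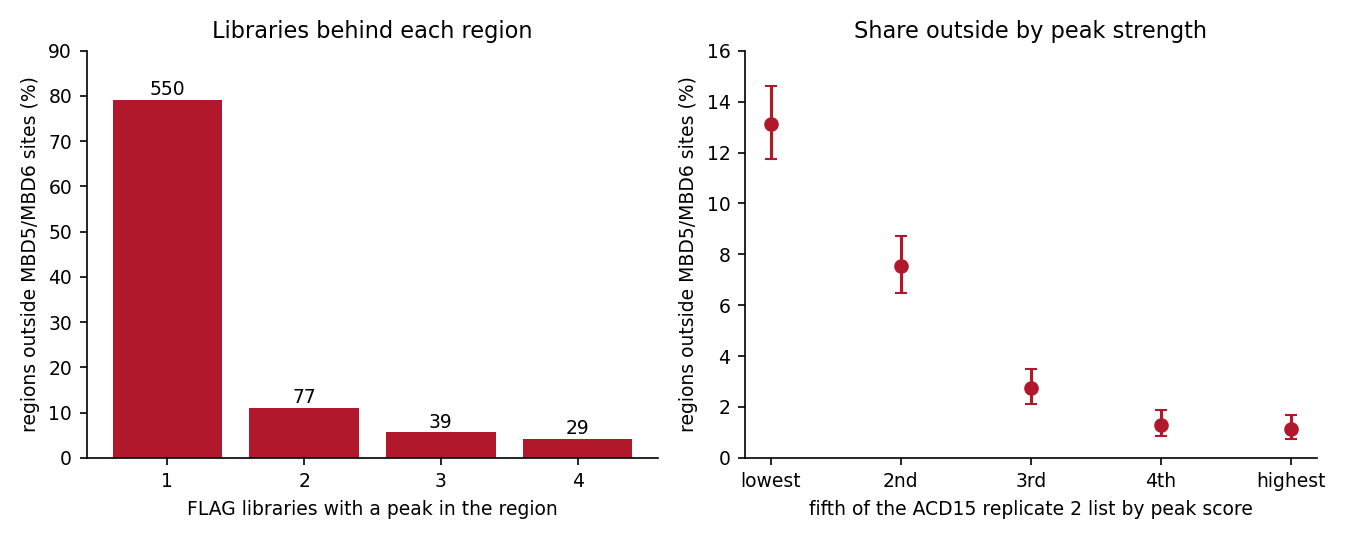
Left, percentage of the 695 regions (y axis) with a peak in 1, 2, 3 or 4 FLAG libraries (x axis), with the number of regions over each bar. Right, percentage of joined regions outside MBD5/MBD6 sites (y axis, points with 95% exact binomial intervals) by quintile of the ACD15 replicate 2 list from the lowest to the highest peak score (x axis). The share falls from 13.1% in the lowest quintile to 1.14% in the highest.

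By the list each row came from, the share outside MBD5/MBD6 sites was highest for ACD15 rows with replicate 1 as their only parent, 95 of 160 (59.4%). It was 481 of 5816 (8.27%) for rows with replicate 2 alone and 81 of 5125 (1.58%) for rows with both. For ACD21 it was 106 of 3372 (3.14%) with replicate 1 alone, 3 of 35 (8.57%) with replicate 2 alone and 48 of 3396 (1.41%) with both.

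The distance to the nearest MBD5/MBD6 row had a median of 2451 bases and ran from 1 to 46281. Within 500 bases of such a row lay 71 regions, within 1000 bases 153, and beyond 10 kb 94. The nearest row carried both MBD5 and MBD6 as parents for 459 regions (66.0%), which compares with 68.6% of all MBD5/MBD6 rows. At the threshold, the nearest regions just outside were chr2:3567849-3568109 and chr2:6533254-6533458, each 1 base from a row, and chr1:9582113-9582374, 6 bases from one. The first had a fold of 1.54 in ACD15 replicate 2, the second 1.58 in ACD15 replicate 1 and the third 1.72 in ACD15 replicate 2, each with no other FLAG peak. The second is centred in an untranslated exon 95 bases past the start of RLP19, a receptor-like protein gene, and the third a coding exon of AT1G27570. The smallest overlaps that kept a row out were 14, 22 and 23 bases, at chr4:2039865-2040066, chr3:5152345-5152666 and chr4:5271623-5271829 in the ACD15 list. Chromosome 2 held 169 regions (24.3%) with 16.5% of the bases, and 20.5% of the inside regions.

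The 12 regions of the highest mean percentile over the 4 FLAG libraries are described next. A library without a peak entered that mean as 0, so the ranking itself favoured regions called in all 4, as these were. The highest, chr1:17709502-17710908, is centred 2455 bases past the start of AT1G48010, annotated as an invertase or pectin methylesterase inhibitor, but outside that gene. Its folds were 6.29 and 9.36 for ACD15 and 9.24 and 7.67 for ACD21, and MBD6-RFP peaks there had folds of 18.2 and 23.1 in wild type and 25.3 in acd15 acd21 replicate 1. It stood above the 98th percentile in all 4 FLAG lists, although no MBD5/MBD6 row lies within 1902 bases. The region upstream of UGT78D1, chr1:10814078-10814731, is centred 208 bases before the gene start, had folds of 6.36, 9.19, 7.73 and 5.72 in the same order, and an MBD6-RFP peak of fold 10.5 in wild-type replicate 1 only. This region has no repeated sequence, with 0% of its 31-base words found elsewhere in the genome.

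The third, chr1:22104637-22106724, is centred 1666 bases upstream of MIR426, a microRNA gene. It had folds of 5.08, 8.41, 9.29 and 6.99 and an MBD6-RFP peak of fold 14.5 in wild-type replicate 2. The fourth, chr3:11602176-11603955, covers the transcribed pseudogene AT3G29788, with folds of 4.73, 8.22, 9.03 and 6.52 and MBD6-RFP folds of 20.4 in wild-type replicate 1 and 12.5 in mutant replicate 1. At all 4 of these regions the MBD6-RFP fold was above each FLAG fold, although folds of separate lists are not on 1 scale. In the other 8 the highest FLAG fold ran from 5.10 at the pseudogene AT4G08692 to 7.73 near AT2G14755, and 5 of the 8 had an MBD6-RFP peak. The 3 without one lie upstream of AT1G31440, an SH3 domain gene, past the start of ATCTH, a zinc finger gene, and upstream of OBE2, which encodes a PHD finger protein of meristem maintenance.

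Other regions with strong MBD6-RFP peaks lay near AT2G27260, annotated as a late embryogenesis abundant protein, and in the pseudogene AT2G07660. The first, centred 285 bases upstream of the gene start, had FLAG folds of 4.35 in ACD15 replicate 1, 5.56 and 3.46 in ACD21 and none in ACD15 replicate 2, with an MBD6-RFP fold of 13.2 in wild-type replicate 1. The second had FLAG folds of 2.42 in ACD15 replicate 2 and 2.52 and 2.17 in ACD21, with an MBD6-RFP fold of 8.33 in wild-type replicate 2. A region centred 1252 bases upstream of MIR5651, a microRNA gene, was called in all 4 FLAG libraries, with folds of 3.19, 5.95, 3.47 and 2.48. It had an MBD6-RFP fold of 8.78 in wild-type replicate 1.

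**Figure D2:**
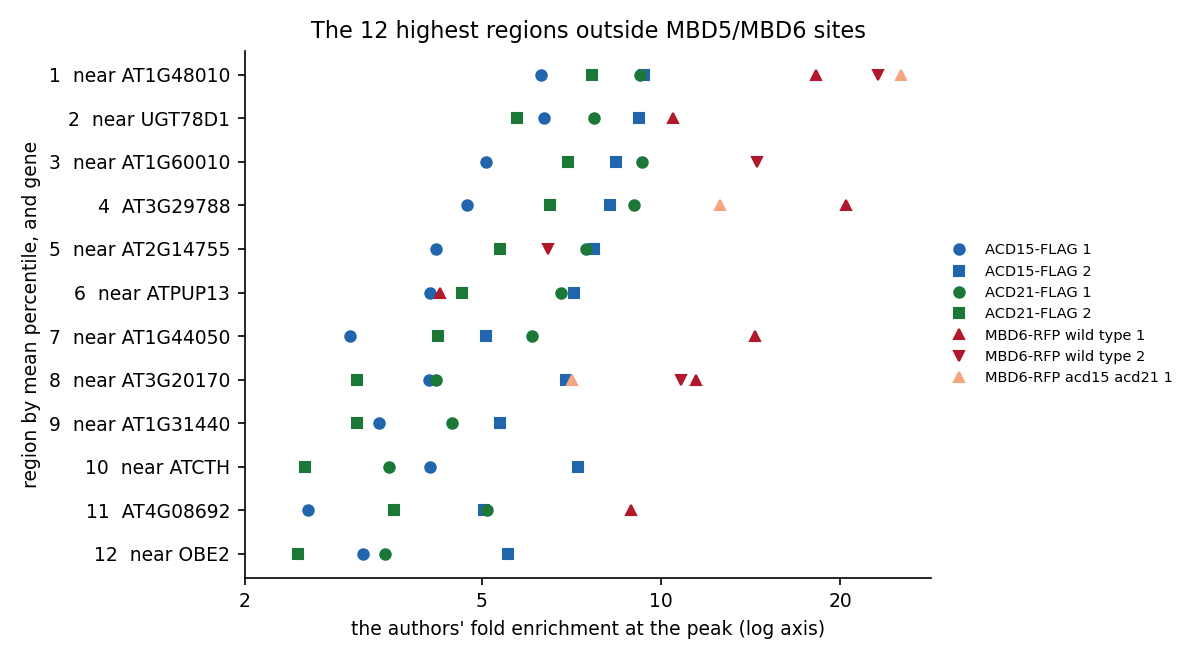
Fold enrichment given by the authors' peak caller (x axis, log scale) at the 12 regions of the highest mean percentile (y axis, named by the gene at the centre or the nearest gene start), 1 symbol per library. A missing symbol means no peak in that list, and acd15 acd21 replicate 2 had none at these regions. The top region holds FLAG folds of 6.29 to 9.36 and MBD6-RFP folds of 18.2 to 25.3.

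A region near AT3G47210, chr3:17382661-17383655, stood apart from the rest called in 1 library. Its only FLAG peak was in ACD21 replicate 2, at a fold of 7.23 and the 98.9th percentile of that list. It held the strongest MBD6-RFP peaks of all 695 regions, with folds of 27.8 and 27.5 in wild type and 30.6 in acd15 acd21 replicate 1, and 15 copies of TTTCCCGC. Peaks in each list are numbered along the chromosomes, and in each of the other 3 FLAG lists exactly 1 number is missing between the peaks that flank this region. In ACD15 replicate 2 those flanking peaks are numbers 6853 and 6855, with 3257 bases between them. The gap is far wider in ACD15 replicate 1, 29767 bases, and in ACD21 replicate 1, 24527 bases. The missing peaks are not in the deposited lists, so whether they lay in this region was not tested. The neighbouring region chr3:17384034-17384359, upstream of the same gene, had a fold of 1.67 in ACD15 replicate 2 and met the same MBD6-RFP peak of wild-type replicate 1.

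A pair of strong regions lies at the genes that encode the tagged proteins. At AT1G76440, an HSP20-like gene taken here as ACD15, chr1:28682362-28684485 was called in both ACD15 libraries with folds of 7.65 and 9.26 and in no ACD21 library. At AT1G54850, an HSP20-like gene taken as ACD21, chr1:20453893-20456003 was called in both ACD21 libraries with folds of 8.66 and 6.82 and in no ACD15 library. Each was called only with its own transgene and covers 2124 or 2111 bases, from 700 or 496 bases before the gene start to 9 bases past the end of the coding sequence. Neither had an MBD6-RFP peak. Reads from an inserted transgene and binding at the native gene cannot be told apart here. The region at AT1G76440 is also centred 1361 bases upstream of PHT1;9, a phosphate transporter gene.

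Compared with inside regions, a larger share of the 695 regions lay in genes. The centre fell in a protein-coding gene body at 274 regions (39.4%, 95% exact binomial interval 35.8 to 43.2), of which 205 were in coding exons, 38 in UTR exons and 31 in introns. The same held for 15.8% (15.1 to 16.5) of inside regions and for 54.1% of the bases of the chromosomes. Promoters, taken as 1 kb before a gene start, held 11.9% (9.63 to 14.6), against 22.4% (21.7 to 23.3) of inside regions and 13.3% of bases. Pseudogenes and genes that code for no protein held 19.6% (16.7 to 22.7), against 15.4% of inside regions and 9.99% of bases. The annotation used holds no transposon features, so any transposons among the pseudogenes named in this report were not told apart. In gene-poor bins of 100 kb, where exons of protein-coding genes made up less than 20% of the sequence, lay 27.8%, against 28.6% of inside regions and 16.8% of bases.

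This gene-body share depended on which library had called the region. It was 69 of 90 (76.7%, 66.6 to 84.9) for regions called in ACD15 replicate 1 alone, 146 of 426 (34.3%, 29.8 to 39.0) in ACD15 replicate 2 alone and 19 of 32 (59.4%, 40.6 to 76.3) in ACD21 replicate 1 alone. For regions called in at least 2 libraries it was 40 of 145 (27.6%, 20.5 to 35.6), and for those called in all 4 it was 2 of 29 (6.90%, 0.846 to 22.8). Within the lowest quintile of the ACD15 replicate 2 list the share was 40.6% at the regions and 18.8% at inside regions, and in the next quintiles 31.3% and 18.1%, 19.7% and 14.5%, and 14.3% and 13.2%. In the highest quintile it was 4.00% (0.101 to 20.4), 1 of 25, and 10.9% (9.61 to 12.3). Of the 29, 15 lay outside genes, pseudogenes and promoters, 7 in promoters and 5 in pseudogenes or other genes. Among inside regions the share changed less, from 16.1% in those called once to 13.2% in those called in all 4. Regions called in ACD15 replicate 1 alone rest on 1 library and 1 of the 90 had an MBD6-RFP peak (1.11%, 0.0281 to 6.04), against 29.9% of all joined regions and 17.3% of inside regions called once.

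**Figure D3:**
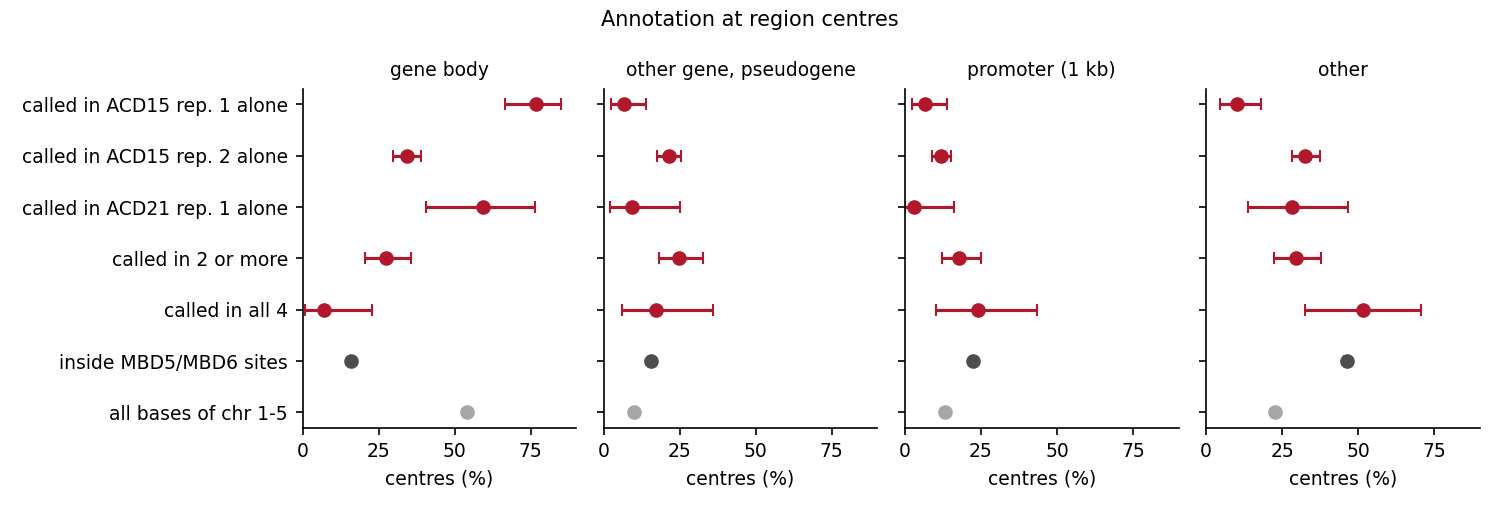
Percentage of region centres (x axes, points with 95% exact binomial intervals) in 4 kinds of annotation (panels), for regions outside MBD5/MBD6 sites split by the FLAG libraries that called them (red), inside regions (dark grey) and all bases of chromosomes 1 to 5 (light grey, no interval). The gene-body share is 76.7% for regions called in ACD15 replicate 1 alone and 6.90% for regions called in all 4 libraries.

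Among the genes that held regions called in ACD15 replicate 1 alone were the clock regulator CCA1 (fold 1.62), the auxin response factor ARF6 (1.64), the flowering repressor SVP (1.53) and PI (1.61), a floral organ identity gene. CCA1, ARF6 and SVP were named after their values had been seen. Folds of the 90 regions called in that library alone ran from 1.46 to 2.32. Proline-rich extensin-like genes held 4 regions in coding exons, at AT1G26250, AT3G28550, AT4G08410 and AT3G54580, out of 15 genes of that annotation. An inside region was held by 3 of the 15. Over all protein-coding genes, 265 of 27444 (0.966%) had a region centred in their body and 5.47% an inside region. This annotation was also picked after the values had been seen. The regions at AT1G26250, AT3G28550 and AT4G08410 were called in ACD15 replicate 1 alone with folds of 1.64, 1.76 and 1.76. The one at AT3G54580 was called in 3 libraries, with folds of 1.71 and 1.69 in ACD15 and 1.55 in ACD21 replicate 1, and has 0.333 CG per 100 bases.

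CG dinucleotides were denser at the regions than in the genome. In the central 300 bases the median was 3 CG per 100 bases (quartiles 1.67 and 4.67) at the 695 regions, 3 (2 and 4.33) at inside regions and 2 (1.33 and 3) in the tiles. More CG than the genome median was found at 64.9% (61.2 to 68.4) of the regions and 67.8% (66.9 to 68.7) of inside regions. The median was 2.67 at regions called in 1 library and 3.67 at those called in at least 2. It was 2 at regions called in ACD15 replicate 1 alone, the value of the tiles, 2.67 in ACD15 replicate 2 alone and 3.83 in ACD21 replicate 1 alone. GC content, which moves with CG density, had a median of 39.7% at the regions, 34.3% at inside regions and 36.3% in the tiles, and its part in the CG density was not tested. No CG at all was found in the window of 5 regions (0.719%), all called in 1 library, and in 1.68% of the tiles. The densest regions called at least in 2 libraries held 12.7 CG per 100 bases at chr4:1801673-1803061 and 10.0 at the pseudogene AT5G31719. A density of 9.67 was shared by 3 regions, at the pseudogene AT2G01029, near AT1G48010 and at chr2:11566472-11566874. The sparsest held 0.333 in the central window, near PHT1;3, in AT3G54580 and near AT1G59171. Near PHT1;3 the FLAG summit lies off that centre, and the 150 bases around the summit hold 5 CG.

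**Figure D4:**
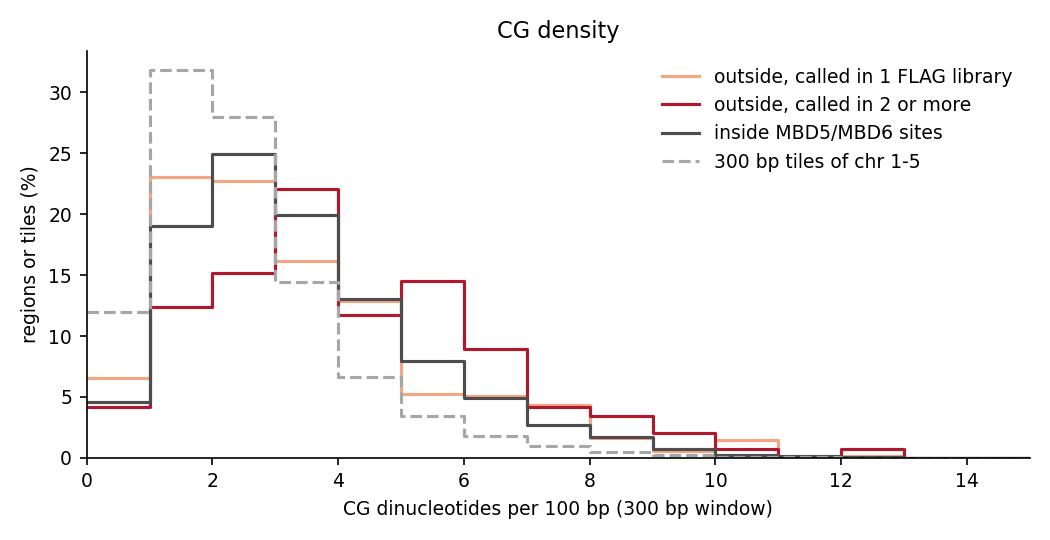
Percentage of regions or tiles (y axis) by CG dinucleotides per 100 bases in a 300-base window (x axis, steps of 1), for regions outside MBD5/MBD6 sites called in 1 FLAG library or in at least 2, inside regions, and all 300-base tiles of chromosomes 1 to 5. Regions called in at least 2 libraries are shifted to higher densities, with a median of 3.67 against 2 in the tiles.

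Repeated sequence was part of the picture. At least 50% of the 31-base words of a region occurred more than once in the genome at 129 regions (18.6%, 15.7 to 21.7), against 15.0% of inside regions and 7.75% of tiles. Further copies within the same region count here too. Reads from such copies cannot be placed with certainty, and the sources used here do not say how the authors treated them. Of the 129, 54 lay in pseudogenes or genes without a protein and 24 in protein-coding gene bodies. Without these regions 566 were left, and 44.2% of them had their centre in a gene body.

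Runs of at least 4 regions, each within 10 kb of the next, occurred 8 times and held 60 regions. The longest run, chr2:19073-50500, held 19 regions in 31.4 kb near the left end of chromosome 2, with no MBD5/MBD6 row in its span. In it, 17 regions were repeated sequence, 14 lay in pseudogenes and 12 had an MBD6-RFP peak. ACD15 replicate 2 called all 19, ACD21 replicate 1 called 11, ACD21 replicate 2 called 4 and ACD15 replicate 1 called 0. The widest of the 695 regions, chr2:34624-37830, lies in this run, with folds of 2.91, 2.78 and 2.32 in the 3 libraries that called it. The next run, chr4:1791295-1804431, held 9 regions, 7 of them repeated, and ACD15 replicate 1 again called 0 of them. Runs of repeated sequence at chr2:4237409-4244030 and chr2:3228559-3232009 held 5 and 4 regions, and 4 and 2 had an MBD6-RFP peak. The run at chr1:11407033-11410247 held 5 regions, 3 of them repeated, and none had an MBD6-RFP peak.

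Some runs were mostly unique sequence. At chr4:5553284-5562816, beside the pseudogene AT4G08692, 6 regions with a median of 1.10% repeated words were called, 5 of them in at least 2 FLAG libraries, with folds up to 7.15, and MBD6-RFP peaks were found at 3. At chr1:22100635-22108615, around the pseudogene AT1G60020 and upstream of MIR426, 5 regions were called. The highest fold, 9.29, was that of the region centred 1666 bases upstream of MIR426. At chr4:9483926-9492132, which includes RPP4, a disease resistance gene, 7 regions with folds up to 2.43 had no MBD6-RFP peak.

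MBD6-RFP peaks were scarcer at the 695 regions than at all joined regions in each library. The MBD6-RFP libraries did not choose the regions, but the list that did includes sites of MBD6, so this scarcity is not independent of the choice. In wild type, 47 regions had a peak in replicate 1 (6.76%, 5.01 to 8.89) and 34 in replicate 2 (4.89%, 3.41 to 6.77), against 21.3% and 8.55% of all joined regions. In acd15 acd21, 40 had a peak in replicate 1 (5.76%, 4.14 to 7.76) and 4 in replicate 2 (0.576%, 0.157 to 1.47), against 12.0% and 2.18%. Any of the 4 libraries gave a peak at 93 regions (13.4%, 10.9 to 16.1), against 29.9%. Over the libraries the share was 5.83% ± 1.32 (SD, n = 2) in wild type and 3.17% ± 3.66 (SD, n = 2) in acd15 acd21, a difference of 2.66 percentage points. The groups overlapped and the difference was not larger than the spread between replicates (exact permutation test, two-sided, p = 0.667, where the smallest p that 2 against 2 libraries allow is 0.333). At inside regions the shares were 15.5% ± 9.49 and 7.34% ± 7.15 (SD, n = 2 each), with the same p from the exact permutation test.

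Regions with a peak overlapped across genotypes. Of the 40 regions with a peak in mutant replicate 1, 21 also had one in wild-type replicate 1, and all 4 of mutant replicate 2 had one in wild-type replicate 2. Both wild-type libraries shared 4 regions and both mutant libraries shared 0. Over all 11331 joined regions the same held, with 1175 of 1358 regions of mutant replicate 1 also in wild-type replicate 1, 224 of 247 of mutant replicate 2 in wild-type replicate 2, 159 shared by both wild-type libraries and 15 by both mutant libraries. Between the replicate 1 libraries the share of mutant regions also found in wild type was 52.5% at the 695 regions and 86.5% at all joined regions. The lists also differ in length, with 3492 and 1244 peaks in wild type and 3987 and 404 in the mutant. Their names say that regions prone to unspecific enrichment were taken out, and by the numbering of peaks 53.0% and 96.5% of the wild-type and 42.9% and 93.1% of the mutant peaks were left. In the 2 lists numbered replicate 1, numbers were missing between the flanking peaks at 461 of 626 and 538 of 650 regions that had no peak but a listed peak on both sides. The part of these removals in the shares was not tested.

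**Figure D5:**
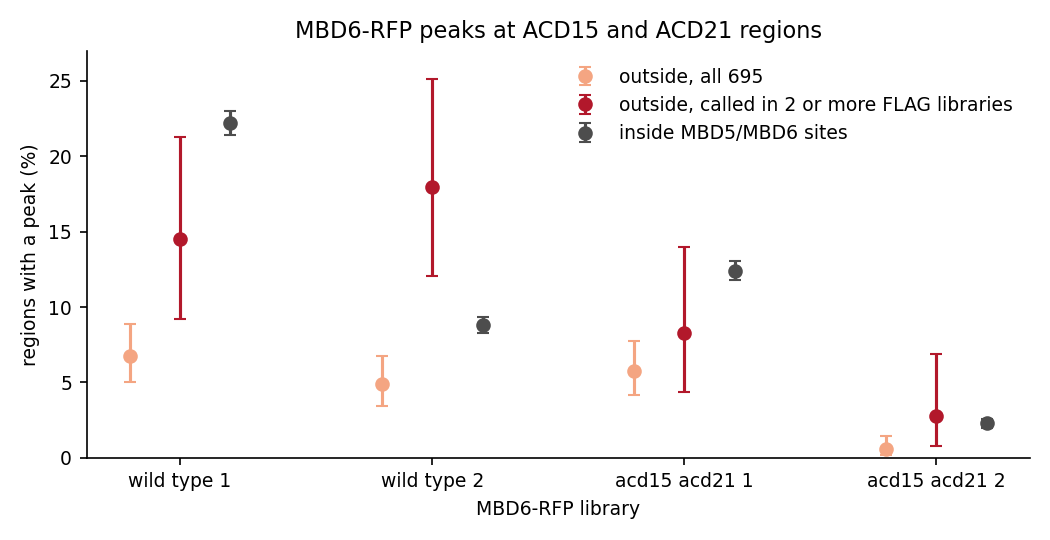
Percentage of regions with an MBD6-RFP peak (y axis, points with 95% exact binomial intervals) in each of the 4 MBD6-RFP libraries (x axis), for all 695 regions, for the 145 called in at least 2 FLAG libraries and for inside regions. All 695 regions are below inside regions in each library, from 6.76% against 22.2% in wild-type replicate 1 to 0.576% against 2.28% in mutant replicate 2.

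With repeated regions included, regions that more FLAG libraries called had MBD6-RFP peaks at shares nearer to those of inside regions. Any MBD6-RFP peak was found at 46 of 550 regions called once (8.36%, 6.19 to 11.0) and at 17.3% (16.2 to 18.5) of inside regions called once. At regions called in at least 2 libraries it was 47 of 145 (32.4%, 24.9 to 40.7) against 39.3% (38.1 to 40.4), and in all 4 it was 17 of 29 (58.6%, 38.9 to 76.5) against 53.6% (51.7 to 55.4). TTTCCCGC occurred 3 times or more at 5 of 25 regions (20.0%, 6.83 to 40.7) of the highest quintile of the ACD15 replicate 2 list, and at 7.17% (6.12 to 8.33) of inside regions there. These 5 are the same regions with the string that all 4 FLAG libraries called. The string was picked after sequences of the strongest regions had been seen, so this count is no separate result. In the highest quintile, 17 of 25 regions (68.0%, 46.5 to 85.1) and 56.3% (54.1 to 58.4) of inside regions had an MBD6-RFP peak. In the lowest quintile the shares were 12.2% (8.67 to 16.6) and 26.9% (24.9 to 29.0). In wild-type replicate 2 the 145 regions stood above such inside regions, with 17.9% (12.1 to 25.2) against 11.6% (10.8 to 12.4). Of all 34 regions with a peak in that library, 22 were repeated sequence. Without repeated regions its share was 8 of 109 (7.34%, 3.22 to 14.0) at regions called in at least 2 libraries, against 10.4% (9.58 to 11.2) at such inside regions, so it no longer stood above them. For any MBD6-RFP peak the shares without repeated regions were 25 of 109 (22.9%, 15.4 to 32.0) and 37.5% (36.3 to 38.8). The 109 regions thus stayed below such inside regions, and the opening statement does not hold for them.

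The 93 regions with an MBD6-RFP peak differed from the other 602 in sequence and place. Their median CG density was 4.33 per 100 bases against 2.67, their median width 383 bases against 270.5 and their GC content 44.3% against 38.7%. In gene bodies lay 16.1% (9.32 to 25.2) of the 93 and 43.0% (39.0 to 47.1) of the 602, in pseudogenes or genes without a protein 36.6% (26.8 to 47.2) and 16.9%. Repeated sequence made up 38.7% (28.8 to 49.4) of the 93 and 15.4% (12.7 to 18.6) of the 602.

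Gene starts near a region were listed for 191 protein-coding genes, from 1 kb upstream to 200 bases downstream, of which 61 have a symbol. Of these 61, 18 had a region called in at least 2 FLAG libraries and 3 in all 4, UGT78D1, OBE2 and PRSL1, a GRAM domain gene. HVT1, a helicase gene, had folds of 2.45 and 4.55 in ACD15 and 2.64 in ACD21 replicate 1, and an MBD6-RFP fold of 3.83 in wild-type replicate 1. PRSL1 had 2.15, 4.32, 2.84 and 1.88. The PRSL1 region is centred in an intron 525 bases past the gene start and ends at base 18584659 of chromosome 4, which has 18585056 bases. AFH14, which encodes a formin of the actin cytoskeleton, had 3.52 in ACD15 replicate 1 and 3.66 and 2.14 in ACD21. GRXC2, a glutaredoxin gene, had 2.60, 4.23 and 2.45, and PAE1, a proteasome subunit gene, had 2.35, 4.80 and 2.21 in both ACD15 replicates and ACD21 replicate 1. MYB70, a transcription factor gene, had 1.90, 3.69 and 2.03 in those libraries, and SFP1, a major facilitator family transporter gene, had 2.35 and 3.34 in ACD15.

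Regions at listed gene groups were counted in windows from 1 kb before the start to the end of the gene. For all protein-coding genes the count was 436 of 27444 (1.59%) and for pseudogenes 142 of 4843 (2.93%), and most lists are too short to be read against these shares. None of 17 promoter-methylated or imprinted genes and none of 21 DNA methylation and silencing genes held one, while 14 and 7 of them held an inside region. Of 20 floral meristem and organ identity genes only PI held one, of 16 abundantly transcribed genes only ACT7, an actin gene (fold 2.01 in ACD15 replicate 2), and of 6 active transposon genes only AT1G58140 (2.11 in ACD15 replicate 2). Of 5 genes of the complex itself, the tagged ACD15 and ACD21 genes held one. Of 40 small heat shock genes 4 held a region, 3 of them at the tagged genes and their neighbour AT1G54840, and the fourth upstream of AT4G16545 (2.40 in ACD15 replicate 2). Of 152 HSP70, HSP90, HSP101 and DnaJ genes 2 did, ARG1, a DnaJ gene (fold 1.91), and AT4G07990 (1.59). Ribosomal protein genes held 2 of 349, histone genes 2 of 51, tRNA genes 5 of 625, snoRNA genes 1 of 287, snRNA genes 2 of 82, rRNA genes 0 of 4 and microRNA genes 3 of 326. Inside regions were held by 1 of the 20 floral genes, 5 of the 16 abundantly transcribed genes, 6 of the 40 small heat shock genes and 2 of the 51 histone genes, and by 19.3% of all protein-coding genes.

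Other short strings were counted in the same windows. AAACCCTA, a telobox-like string, occurred in the central 300 bases of 4.17% of the regions, 4.22% of inside regions and 3.87% of tiles, and TGGGCC in 5.18%, 6.89% and 4.53%. CACGTG was found at 3.31%, 2.92% and 3.26%, GAANNTTC, the core of heat shock elements, at 9.64%, 9.57% and 11.8%, and GAGAGAGA at 6.19%, 5.25% and 4.71%. GAAGAAGAA stood at 3.31%, 3.39% and 5.14%. AAAAAAAA was found at 17.0% of the regions, 26.1% of inside regions and 18.5% of tiles. ACGT, which lies within CACGTG, occurred at 44.0%, 42.8% and 40.5%. Both strands were searched for each.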

How the data were processed

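Chromatin immunoprecipitation was measured in 11 libraries. The submitters' processing notes name MACS2 2.1.0, HOMER, Bowtie2, Trim Galore, Picard and deepTools 3.0.2 with TAIR10, without order or settings. The deposited files are 8 peak lists of single libraries and 3 merged lists. In each library list the authors deposited a score, a fold enrichment (a ratio) and −log10 p and q values, used only to describe or rank peaks within a list. Peak lists hold no read depth, so the precision it gives is unknown. Entries with the same start and end were reduced to the one of the highest −log10 q, starts were made 1-based, and the start positions of the MBD5/MBD6 list were taken as 1-based, like those of the merged ACD15 and ACD21 lists. Overlap needed 1 base. The start convention of the MBD5/MBD6 list is not stated there.

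Positions, genes and words came from the RefSeq TAIR10.1 assembly, whose chromosome lengths no peak exceeded. Its annotation holds no transposon features. A centre was assigned in the order protein-coding gene body, other gene or pseudogene, promoter, other. Python 3.11.15, numpy 2.4.6, pandas 2.3.3 and scipy 1.17.1 were used, and overlap, joining and the exact test were checked on simulated intervals. The share of regions with an MBD6-RFP peak was compared over libraries with an exact permutation test. Alternatives left out each library, changed distance, overlap, peak threshold, window, assignment and promoter length, and paired libraries by replicate number. The regions named were those of the 12 highest mean percentiles, those at listed genes, those with the strongest MBD6-RFP peaks, the extremes of CG density and width, those nearest the threshold, and 10 promoter genes. The regions, lists and named-gene rule were chosen with earlier results of these data known.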

Additional observations from a re-analysis of the deposited data

How the results depend on the processing

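The number of regions, 695, ranged from 272 to 693 when each FLAG library was left out in turn, lowest without ACD15 replicate 2. It was 416 when a FLAG peak with −log10 q of at least 5 was asked for. The share in gene bodies, 39.4%, ranged from 33.9% without ACD15 replicate 1 to 47.1% without ACD15 replicate 2, and was 44.2% without repeated regions. The share in promoters was 6.19% with promoters of 500 bases, and 11.8% to 12.7% without single libraries. The median CG density was 3 to 3.17 without single libraries. The cause of these moves was not tested, beyond the fewer peaks or bases that each setting allows by construction. The other 33 of 39 alternatives kept direction, side of the threshold or size. They include every alternative for the MBD6-RFP share, whose side of the threshold was fixed in advance. With 2 against 2 libraries no p can be below 0.333, so none could have crossed 0.05. These were counted as kept even where the difference fell to 0.0719 percentage points, so the count says nothing about how firm that difference is.

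The difference in MBD6-RFP share, 2.66 percentage points, ranged from 0.0719 without mutant replicate 2 to 5.25 without mutant replicate 1. Its exact permutation p ranged from 0.333 to 1 over the alternatives. With pairing by replicate number as a block the difference was 2.66 (exact p = 0.5, the smallest that 2 pairs allow). Wild type was higher within both numbers, 6.76% against 5.76% and 4.89% against 0.576%. Libraries of the same number shared more regions than libraries of the same genotype (21 and 4 against 4 and 0), and the share of peaks left in their lists was alike. No label says that a number marks a shared source, so pairing remains a hint from the data. Leaving out repeated regions or the loci of the transgenes was added after seeing the data.

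Peak lists do not tell an unbound region from one that shallow sequencing missed or that was taken out of a list.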

Other observations

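By the numbering of peaks, the FLAG lists kept 93.2% and 94.7% of the ACD15 peaks and 96.7% and 98.7% of the ACD21 peaks, in replicates 1 and 2. At 95 of 497 regions with no peak in ACD15 replicate 1 but a listed peak on both sides, and at 27 of 131 such regions in ACD15 replicate 2, at least 1 number was missing between the flanking peaks. For ACD21 this was so at 58 of 544 regions in replicate 1 and 28 of 643 in replicate 2. The flanking peaks can lie far apart, so a missing number does not place the missing peak in the region.

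Annotated product names that recurred among genes with a region in their body were protein kinase superfamily (6 genes of 327), leucine-rich repeat family (4 of 58), major facilitator superfamily (4 of 124), tetratricopeptide repeat-like (4 of 268) and hydroxyproline-rich glycoprotein family (4 of 67). Inside regions lay in 30, 4, 11, 8 and 5 genes of these names. Over all protein-coding genes the shares were 265 of 27444 (0.966%) and 1502 (5.47%). The names were chosen after the values had been seen.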
